A study of Drosophila melanogaster with 31 samples.

Results

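RNA of Tsc1 mutant clones was compared with RNA of wild-type (wt) clones of the Drosophila eye imaginal disc, both from larvae on normal food at 25°C. Members were the libraries whose labels give these genotypes, this food and this temperature, which were 8 of the 31 libraries of the series. The main test compared 7 of them, 3 wt and 4 Tsc1, because replicate 4 of wt was a low-complexity library. The filter on low counts and the estimate of the spread came from a fit over 29 libraries of 8 groups. Of the 17559 genes of the count table, 13524 passed the filter on low counts and were tested, and 4035 did not, of which 1354 had 0 counts in the 7 libraries.

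The study profiled single clones of about 50 cells, cut by laser from the disc, the larval epithelium from which the adult eye and head capsule form. Clones arose by FLP recombination on chromosome arm 3R after a heat shock of 11 min at 37°C at 36 h after egg laying, and wandering third-instar larvae, not selected for sex, were dissected. The wt clones were homozygous for the FRT82 iso chromosome and the Tsc1 clones for FRT82 Tsc1Q87X, a nonsense allele, and both were recognised by the absence of GFP in discs that carried hsFLP, tub-Gal4, tub-Gal80 and tub-Gal80ts. The larvae kept at 25°C were siblings of larvae that were moved to 30°C to knock down foxo by RNAi, and the labels do not give the transgenes of the 25°C clones. Each library was 1 clone, and no label says which clones came from separate larvae, so the p-values measure the spread between clones. According to the study, the clones were taken from dividing cells anterior to the morphogenetic furrow.

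Tsc1 and its partner Tsc2, called gig in the fly, form a complex that keeps the small GTPase Rheb inactive. Without the complex, Rheb activates the kinase complex TORC1, which drives ribosome production, protein synthesis and cell growth. Mutant clones in the eye disc are known for large cells and overgrowth. The genes scyl and chrb, the fly homologues of mammalian REDD1, respond to hypoxia and other stresses and are known to restrain TORC1. Whether they can do so in clones without Tsc1 was not tested.

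The 7 libraries had 6877877 to 12755572 counts each, with 6877877 to 12613440 in wt and 8232312 to 12755572 in Tsc1 clones, and 9107 to 14122 genes with a count. Ribosomal RNA genes took 41.0% to 55.9% of the counts. Replicate 4 of wt had 2597196 counts on 6450 genes. Levels are counts per 1000000 counts (CPM), on library sizes adjusted by edgeR's TMM method. The lncRNAs roX1 and roX2, which coat the male X chromosome, separated the wt clones from each other. roX1 had 3.53, 1.22 and 89.0 CPM in wt replicates 1 to 3, 655 CPM in wt replicate 4 and 0.621 to 3.24 CPM in the Tsc1 clones. All 4 Tsc1 clones were thus at the low level of wt replicates 1 and 2.

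The eye disc label was checked against 8 progenitor markers, and all 8 had counts in each of the 7 libraries. Their summed level was 1387 to 2023 CPM in wt and 1874 to 2084 CPM in Tsc1 clones. Among wt clones, replicate 2 stood apart: eya, a transcription cofactor of the eye field, had 276, 17.7 and 119 CPM in replicates 1 to 3 and 328 to 499 CPM in Tsc1 clones, and dac, another eye determination factor, had 414, 15.3 and 200 CPM against 372 to 739 CPM. Photoreceptor and neuron markers summed to 54.9 to 197 CPM in wt and to 89.1, 101, 56.9 and 1019 CPM in Tsc1 replicates 1 to 4. Tsc1 replicate 4 had the highest gl and sev, genes of differentiating photoreceptors, with 609 and 105 CPM. Wt replicate 1 had 69.2 and 15.8 CPM, wt replicate 3 had 42.4 CPM of sev, and Tsc1 replicate 2 had 31.2 CPM of gl. Furrow and photoreceptor differentiation genes summed to 6332 CPM in Tsc1 replicate 4 and to 1391 to 3235 CPM in the other libraries of both groups. The position of Tsc1 replicate 4 relative to the furrow was not tested. Fat body markers summed to 12.4 to 24.5 CPM in wt, to 336 CPM in wt replicate 4 and to 2.28 to 6.32 CPM in Tsc1 clones, with Lsp2, a larval storage protein, at 1.30 to 8.71 CPM in wt and 0 to 1.01 CPM in Tsc1 clones. The part of other cell types in the results below was not tested. The antenna and peripodial markers summed to 31.1 to 94.3 CPM in wt and 68.7 to 158 CPM in Tsc1 clones. The gene danr made up most of each sum except that of wt replicate 2, where it had 0 CPM. Of the 7 markers, 1 had a log2 FC over 0, and the median was −0.68. The markers ss and Lim1 had 29.4 and 23.2 CPM in wt replicate 2 and at most 0.809 and 0.981 CPM in Tsc1 clones. In libraries of this kind, fewer cells of a type and less RNA per cell cannot be told apart.

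The targeted gene Tsc1 lies at 3R:24130307-24134654 (BDGP6.54, plus strand). It had 15.6, 27.4 and 24.5 CPM in wt replicates 1 to 3, 94.1 CPM in wt replicate 4, and 42.9, 13.6, 25.7 and 16.9 CPM in the Tsc1 clones. The groups overlapped, with means of 22.5 ± 6.13 (SD, n = 3) and 24.8 ± 13.2 (SD, n = 4) CPM and a 2-sided p of 0.971 in an exact permutation test on log2 values, whose smallest p with 3 against 4 libraries is 0.0571. Since the allele is a nonsense change in the gene and no deletion, the level of its RNA does not check the labels.

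Calls required both a log2 fold change (FC) above 0.8 or below −0.8 and an edgeR quasi-likelihood p that stayed under 0.2 after Benjamini-Hochberg adjustment over the 13524 genes. In Tsc1 clones, 45 genes were called higher (0.333% of the tested genes) and 119 lower (0.880%), and 1448 had an unadjusted p under 0.05. Over the tested genes as a whole, the log2 FC had a median of −0.09. Every Tsc1 library lay above wt replicates 1 to 3 for 43 of the 45 and below them for 95 of the 119. The shares of all tested genes were 3.35% and 4.15%. With wt replicate 4 also counted, the groups were separate for 34 of the 45 and 48 of the 119. The genes were called from these same libraries, so this separation is no further evidence for the calls. Of the genes called lower, 58 were protein coding, 35 snoRNA or scaRNA, 10 snRNA and 9 were identifiers without an entry in the annotation. Of those called higher, 41 were protein coding and none was a small nuclear or nucleolar RNA. With replicate 4 of wt in the fit, 71 genes were called higher and 102 lower, and 93 of these were among the 164.

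The genes with the smallest p were scyl and chrb on chromosome arm 3L. scyl (3L:11252307-11256172) had 313, 343 and 480 CPM in wt clones and 1227, 1691, 3655 and 2647 CPM in Tsc1 clones. chrb (3L:11487550-11499055) had 124, 57.2 and 134 CPM in wt and 490, 528, 1239 and 909 CPM in Tsc1 clones. Each Tsc1 clone exceeded each wt clone for both genes, also wt replicate 4 with 480 CPM of scyl and 52.2 CPM of chrb. The log2 FC was 2.61 ± 0.35 for scyl and 2.91 ± 0.40 for chrb (SE, here the log2 FC over the square root of edgeR's F statistic), with an adjusted p of 0.000384 for each (edgeR). In a fit on the 7 libraries alone, which tested 8153 genes, the adjusted p was 0.0449 for scyl and 0.0436 for chrb (edgeR). Of the 38 tested members of the insulin and TORC1 list, these 2 were called and the rest were not. For 1 other member of the list every Tsc1 clone lay below every wt clone. The list had a median log2 FC of 0.08 against −0.09 over all tested genes. One further member, RagC-D, a GTPase that brings TORC1 to the lysosome, had an unadjusted p under 0.05 (log2 FC 0.83 ± 0.36, adjusted p = 0.428, edgeR), with overlapping groups of 6.97 to 19.7 CPM in wt and 16.6 to 29.7 CPM in Tsc1 clones.

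Defining pathway genes other than these were given whatever their value. gig had 22.1 to 41.1 CPM in wt and 25.7 to 45.0 CPM in Tsc1 clones. Rheb, the GTPase that the complex inhibits, had 8.56 to 20.4 against 14.1 to 19.7 CPM, with a log2 FC of 0.21 ± 0.43. Thor, the fly 4E-BP, a translation repressor and FoxO target, was near the lower end of detection with 0 to 0.845 CPM in wt and 0 to 3.80 CPM in Tsc1 clones. None of these 3 genes was called (adjusted p of 0.766, 0.923 and 0.862, edgeR). foxo itself had 70.3, 34.2 and 31.8 CPM in wt clones and 31.1 to 38.6 CPM in Tsc1 clones, a log2 FC of −0.40 ± 0.30 (adjusted p = 0.653, edgeR). S6k was not analysed here. Of 24 FoxO and starvation targets, 2 were called, again scyl and chrb, and the median of the list was −0.11.

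**Figure D1:**
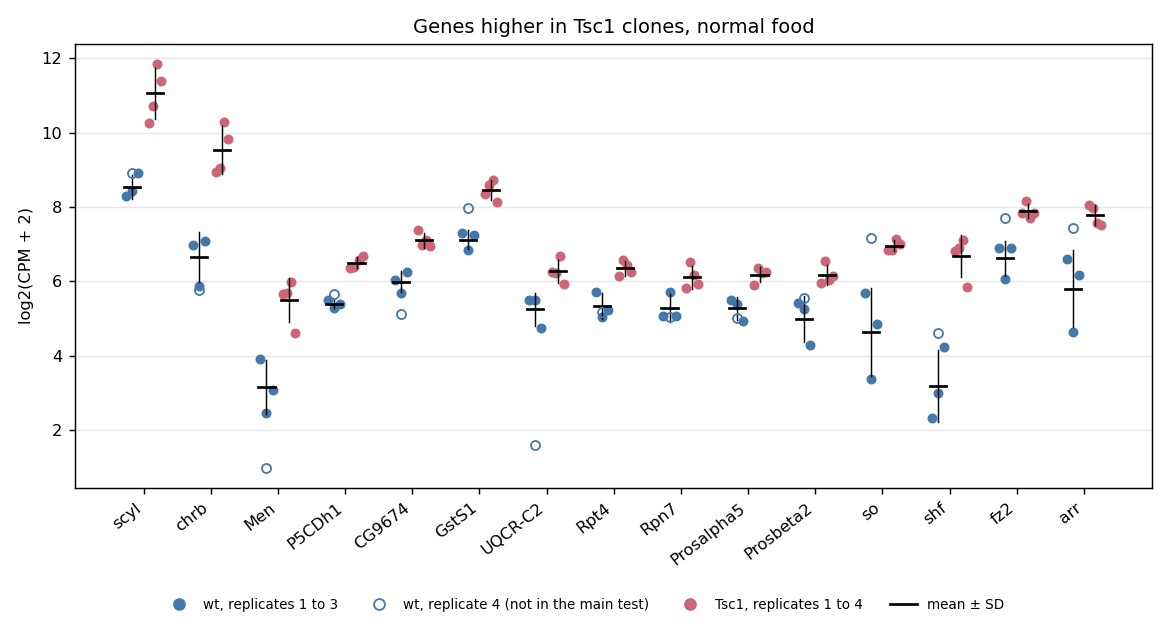
Levels of 15 genes called higher in Tsc1 clones, as log2(CPM + 2) on the vertical axis, 1 point per library, with bars for mean and SD over wt replicates 1 to 3 (blue) and Tsc1 replicates 1 to 4 (red). The Tsc1 points lie above the filled wt points for every gene shown, and the open circle of wt replicate 4 lies above the Tsc1 points for so (143 CPM).

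Several genes called higher encode metabolic enzymes or transport subunits, and they were grouped after their values were seen. The lists of metabolism held few calls: 1 of 8 tested genes of the pentose phosphate pathway and NADPH supply, 1 of 78 of oxidative phosphorylation, and 0 of 18 for glycolysis, 0 of 18 for lipids and 0 of 13 for serine and one-carbon metabolism. Men, the malic enzyme that yields NADPH, had 13.2, 3.52 and 6.55 CPM in wt and 48.8, 49.4, 61.4 and 22.8 CPM in Tsc1 clones, a log2 FC of 2.54 ± 0.45. P5CDh1, which completes the breakdown of proline to glutamate in mitochondria, had 43.6, 36.8 and 40.0 CPM in wt and 80.7, 82.5, 92.7 and 100.2 CPM in Tsc1 clones, a log2 FC of 1.15 ± 0.23. Both genes were higher in each Tsc1 clone than in each wt clone, and P5CDh1 had the narrower spread (SD of 3.38 and 9.12 CPM). CG9674, which encodes a glutamate synthase, rose by a log2 FC of 1.13 ± 0.27, from 49.7 to 73.8 CPM in wt to 122 to 166 CPM in Tsc1 clones. GstS1, a glutathione S-transferase, had 155, 112 and 149 CPM in wt and 281 to 425 CPM in Tsc1 clones. UQCR-C2, a core subunit of respiratory complex III, Vha36-1, a vacuolar ATPase subunit, and Sptr, a sepiapterin reductase, rose by 1.04, 1.23 and 1.77 on the log2 scale. Adjusted p-values of these 7 genes ran from 0.0108 for Men to 0.176 for Vha36-1 (edgeR).

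The proteasome degrades ubiquitylated proteins. Of 43 tested proteasome genes, 4 were called higher and 0 lower, while 0.333% of all tested genes were called higher. A log2 FC over 0 was found for 34 of the 43, against 42.8% of all tested genes. With wt replicate 4, 7 were called in the fit of 30 libraries. In the 8 libraries of the 2 groups, and with all 31 libraries, 0 were called. Rpt4, an ATPase of the regulatory cap, had 50.7, 31.3 and 35.6 CPM in wt and 68.3, 93.8, 85.5 and 74.0 CPM in Tsc1 clones. Rpn7, a subunit of the cap's lid, rose by a log2 FC of 0.84 ± 0.24, and the core subunits Prosalpha5 and Prosbeta2 rose by 0.93 ± 0.28 and 1.18 ± 0.32 (adjusted p of 0.127 to 0.185 for the 4 genes, edgeR). For 17 of the 43 genes every Tsc1 clone lay above every wt clone, and for 0 below. The median log2 FC of the list was 0.43 against −0.09 over all tested genes. Usp10, a ubiquitin protease, rose by 0.81 ± 0.18, from 217, 175 and 221 CPM to 294 to 422 CPM. The number of proteasome genes called depended on single clones: it was 0 without Tsc1 replicate 2 or wt replicate 3, 1 without Tsc1 replicate 3 and 2 without wt replicate 2 or Tsc1 replicate 1, while the list's median was 0.355 to 0.579 over the 7 fits that left out 1 clone.

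**Figure D2:**
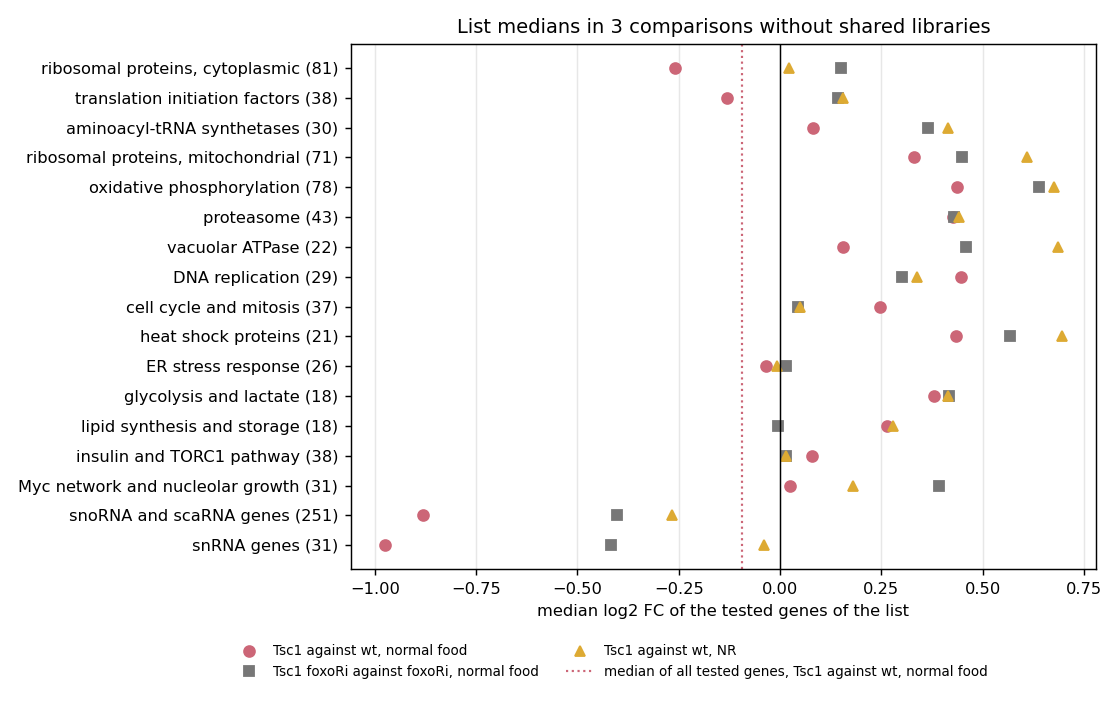
Median log2 FC of the tested genes of 17 lists (number of genes in brackets) in Tsc1 against wt clones on normal food (circles), Tsc1 foxoRi against foxoRi clones on normal food (squares) and Tsc1 against wt clones under nutrient restriction (triangles). The dotted line is the median of all tested genes in the first comparison, −0.09, and the circles of the snRNA genes (−0.98) and of the snoRNA and scaRNA genes (−0.88) lie farthest to its left.

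Other growth-related lists held few called genes. A lack of calls does not show a lack of change, since 13 of 67 genes with a simulated 2-fold change were called. Of 78 tested genes of oxidative phosphorylation, UQCR-C2 alone was called, 64 had a log2 FC over 0 and the median was 0.44. With wt replicate 4, 3 genes of this list were called in the fit of 30 libraries. In the 8 libraries of the 2 groups, and with all 31 libraries, 0 were called. The number was also 0 without wt replicate 2 or 3 or Tsc1 replicate 1, 2 or 3. The 81 cytoplasmic ribosomal protein genes had a median of −0.26, 5 with a log2 FC over 0 and 0 called, although their summed level overlapped between the groups with 43930 to 52050 CPM in wt and 33610 to 44500 CPM in Tsc1 clones. With wt replicate 4 in the fit, their median was −0.0349 and 33 of 81 were over 0, and leaving out 1 library gave medians of −0.133 to −0.335 with 3 to 19 genes over 0 and 1 gene called, lower, without wt replicate 1. RpL37A had the smallest p of this list, with a log2 FC of −0.49 and an adjusted p of 0.323 (edgeR). Mitochondrial ribosomal protein genes had a median of 0.33, with 0 of 71 called. Of 29 DNA replication genes 26 had a log2 FC over 0, with a median of 0.45 and 0 called. The number called higher was 2 without Tsc1 replicate 4 or with wt replicate 4 in the fit of 30 libraries. It was 0 in the 8 libraries of the 2 groups and with all 31 libraries. PCNA, the sliding clamp of the replication fork, came nearest with 0.92 (adjusted p = 0.253, edgeR). The 37 cell cycle genes had a median of 0.25 with 0 called, and CycE, which drives entry into S phase, had a log2 FC of 0.16 ± 0.27. Glycolysis genes had a median of 0.38 and lipid genes one of 0.26, with 0 called in either. The lipid genes FASN1 and FASN3 were not analysed here. Ldh, lactate dehydrogenase, had 1.69 to 9.63 CPM in wt and 3.60 to 39.3 CPM in Tsc1 clones, and SREBP, the regulator of lipid synthesis, had a log2 FC of 0.35 ± 0.23. ER stress genes had a median of −0.04 with 0 of 26 called, and the ER chaperone Hsc70-3 had 178 to 287 CPM in wt and 290 to 374 CPM in Tsc1 clones (adjusted p = 0.573, edgeR). For autophagy genes the median was 0.03 with 0 of 20 called.

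Small noncoding RNAs of splicing and ribosome maturation made up 45 of the 119 genes called lower, 10 snRNA and 35 snoRNA or scaRNA genes. The U2 snRNA, which pairs with the branch point of introns, is encoded by several nearly identical copies. The copy U2:14B (X:16254672-16254863) had 171, 82.2 and 118 CPM in wt and 37.5, 31.0, 32.2 and 53.7 CPM in Tsc1 clones, a log2 FC of −1.68 ± 0.30 with an adjusted p of 0.0120 (edgeR). All Tsc1 clones lay below all wt clones, wt replicate 4 with 103 CPM included. The values of the other called U2 copies, U2:38ABa, U2:34ABa, U2:34ABb and U2:34ABc, were close to these, with log2 FCs of −1.57 to −1.68. Because the table holds fractional counts, in which a read that fits several copies is divided among them, the 5 copies are not separate observations. The same holds for the 4 called U1 copies, of which U1:21D had a log2 FC of −0.99 ± 0.26. U4:39B, the gene of a spliceosomal snRNA that pairs with U6, had 1286, 692 and 1580 CPM in wt and 225, 222, 410 and 334 CPM in Tsc1 clones. In all, 10 of 31 snRNA genes were called, all lower, with a median of −0.98, and 0 of the 31 had a log2 FC over 0. The number called was 6 with wt replicate 4 or without wt replicate 1 (median −0.525), 5 without Tsc1 replicate 1 or 2, 9 to 11 without any other single clone and 0 with all 31 libraries.

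Of 251 tested snoRNA and scaRNA genes, which guide the modification of ribosomal and spliceosomal RNA, 35 were called and all were lower. The list's median log2 FC was −0.88, and 44 of its genes had a log2 FC over 0. The 2 with the smallest p are annotated as guides for pseudouridylation of 28S rRNA. Psi28S-3305c had 217, 118 and 293 CPM in wt and 51.6, 48.7, 80.8 and 47.5 CPM in Tsc1 clones, a log2 FC of −1.87 ± 0.30 and an adjusted p of 0.00374 (edgeR). Psi28S-2566 had 91.7, 135 and 54.5 CPM in wt and 19.2 to 39.5 CPM in Tsc1 clones, a log2 FC of −1.75 ± 0.30. The U3 snoRNA, needed for the early cuts of the 18S rRNA precursor, fell at U3:54Aa from 2793, 3084 and 2049 CPM to 1119 to 1577 CPM and at U3:9B by 1.21 ± 0.34 on the log2 scale. U3:54Aa and U3:54Ab had almost the same values and share reads. Among scaRNAs, PsiU1-6 had a log2 FC of −1.51 ± 0.41.

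The RNA subunits of 2 related ribonucleases fell as well. RNaseMRP:RNA, whose enzyme cuts rRNA precursors, had 956, 1423 and 844 CPM in wt and 377, 473, 607 and 552 CPM in Tsc1 clones (log2 FC −1.10 ± 0.23). RNaseP:RNA, whose enzyme matures tRNA ends, had 286, 454 and 260 CPM in wt and 115 to 228 CPM in Tsc1 clones (log2 FC −0.92 ± 0.26). The summed snoRNA and scaRNA level was 21230, 21020 and 20840 CPM in wt, and 12650, 10440, 19030 and 12030 CPM in Tsc1 clones. Wt replicate 4 had 10470 CPM, at the level of the Tsc1 clones. The summed snRNA level was 5233 to 8496 CPM in wt and 2268 to 3765 CPM in Tsc1 clones, with wt replicate 4 at 4791 CPM. tRNA genes had 0 of 167 called and a median of −0.41. With wt replicate 4, the number of snoRNA and scaRNA genes called was 11 in the fit of 30 libraries and 2 with all 31. In the 8 libraries of the 2 groups it was 0. It was 3 without Tsc1 replicate 2 and 8 without wt replicate 3. Without Tsc1 replicate 4, Tsc1 replicate 1 and wt replicate 1 it was 10, 14 and 17. Without wt replicate 2 and Tsc1 replicate 3 it was 26 and 28. The list's median was −0.595 with 30 libraries, −0.632 with all 31 and −0.689 in the 8 libraries. In the 7 fits that left out 1 clone it was −0.731 to −1.04. RNA length and recovery of small RNAs were not given per library, and their part in the result was not tested.

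**Figure D3:**
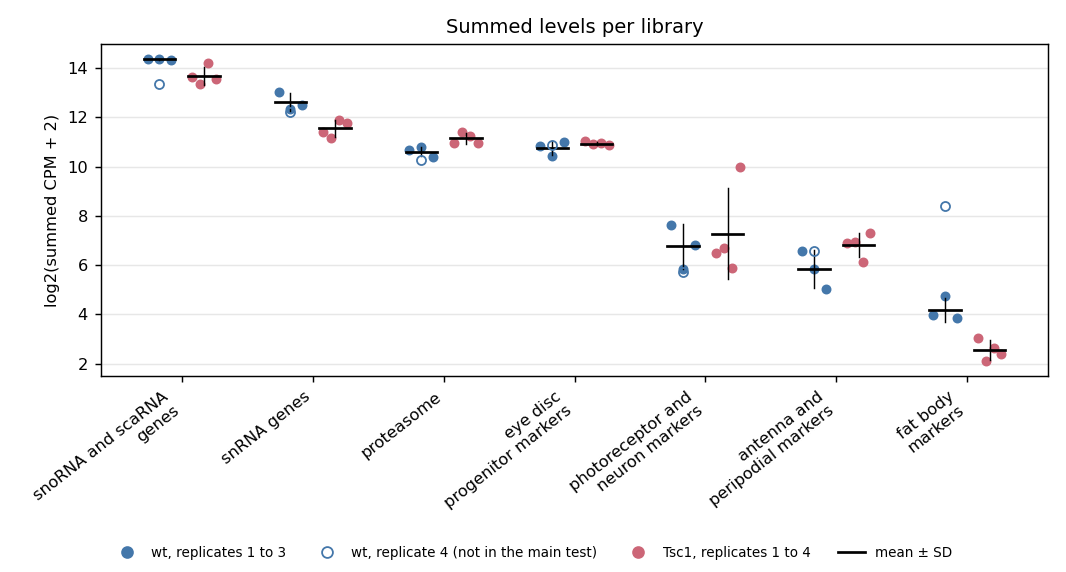
Summed levels of 3 gene lists and 4 marker lists as log2(summed CPM + 2), 1 point per library, with bars for mean and SD over wt replicates 1 to 3 (blue) and Tsc1 replicates 1 to 4 (red) and an open circle for wt replicate 4. The snRNA sums do not overlap (2268 to 3765 CPM in Tsc1 and 5233 to 8496 CPM in wt), Tsc1 replicate 4 stands out for photoreceptor markers with 1019 CPM, and wt replicate 4 for fat body markers with 336 CPM.

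A further 4 protein-coding genes of cell growth and ribosome assembly fell beside these RNAs. Myc, the transcription factor that drives nucleolar growth, had 328, 388 and 534 CPM in wt and 286, 190, 172 and 127 CPM in Tsc1 clones, a log2 FC of −1.10 ± 0.32 (adjusted p = 0.162, edgeR). Non1, a nucleolar GTPase, had 209, 165 and 371 CPM in wt and 95.0 to 146 CPM in Tsc1 clones. LTV1, an assembly factor of the small ribosomal subunit, and Rm62, a DEAD-box RNA helicase, had log2 FCs of −1.34 ± 0.35 and −0.87 ± 0.18. The groups did not overlap for Myc, Non1 and Rm62 and overlapped for LTV1. Of the 31 genes listed for the Myc network and nucleolar growth, these first 2 were the ones called, and the median of the list was 0.03. With wt replicate 4, which had 95.8 CPM of Myc, none of the 4 genes was called: the log2 FCs were −0.76 for Myc, −0.85 for Non1, −0.95 for LTV1 and −0.77 for Rm62, and Rm62 failed the fold limit alone (adjusted p = 0.0946, edgeR).

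**Figure D4:**
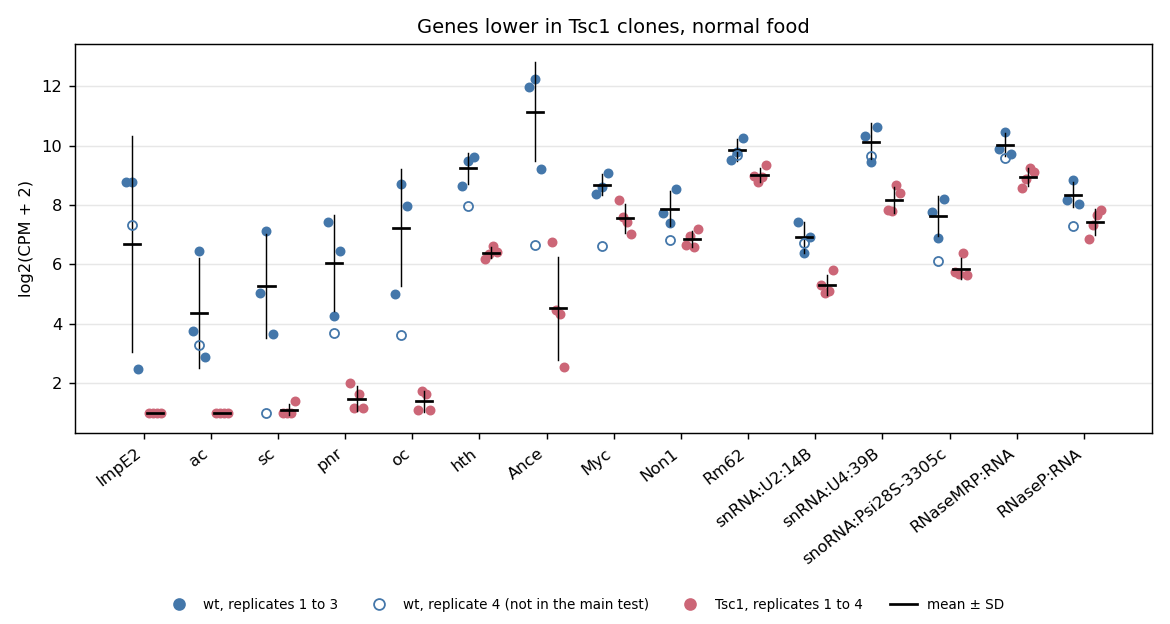
Levels of 15 genes called lower in Tsc1 clones, as log2(CPM + 2) on the vertical axis, 1 point per library, with bars for mean and SD over wt replicates 1 to 3 (blue) and Tsc1 replicates 1 to 4 (red) and an open circle for wt replicate 4. ImpE2 and ac lie at 0 CPM in all 4 Tsc1 clones, and the wt points of ImpE2 spread from 3.59 to 441 CPM.

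ImpE2, an ecdysone-inducible gene of imaginal discs, had the lowest log2 FC of the called genes. At 3L:3510974-3512681 it had 441, 436 and 3.59 CPM in wt clones, from 4743, 2849 and 34 counts, and 0 counts in all 4 Tsc1 clones. Against the floor of 3 counts per library, the wt mean was at least 946-fold higher (adjusted p = 0.0159, edgeR), and wt replicate 4 had 160 CPM. Such floors cover counting error only. ImpE2 was the sole called gene of 20 tested ecdysone response genes, whose median was −0.29.

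A further 12 of the genes called lower, most of them known from proneural or head development, were grouped after their values were seen, and their levels spread widely among wt clones. ac, a proneural transcription factor, had 11.3, 85.1 and 5.39 CPM in wt and 0 in all 4 Tsc1 clones, at least 110-fold higher in wt. Its neighbour sc had 30.4, 138 and 10.7 CPM in wt and 0, 0, 0 and 0.607 CPM in Tsc1 clones, but 0 CPM in wt replicate 4. pnr, a GATA factor of the dorsal eye margin, had 169, 17.1 and 85.9 CPM in wt and 0.202 to 1.96 CPM in Tsc1 clones. These 3 genes did not overlap between the 7 libraries.

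oc, a homeodomain factor of the head vertex, had 30.0, 419 and 251 CPM in wt and 0.101 to 1.34 CPM in Tsc1 clones. hth, a homeodomain factor of eye progenitors and head tissue, had 393, 710 and 778 CPM in wt, 249 CPM in wt replicate 4 and 69.8, 79.5, 95.6 and 84.0 CPM in Tsc1 clones (log2 FC −2.93 ± 0.82, adjusted p = 0.147, edgeR). Ance, a peptidase, had 4076, 4869 and 592 CPM in wt and 3.74 to 107 CPM in Tsc1 clones. The FGF ligand bnl, the homeodomain factor dve, the Sox factor Sox102F, the zinc finger proteins klu and ush, and Dtg were also called lower. Wt replicate 4 lay within the Tsc1 range for Ance (97.6 CPM), bnl (0 CPM) and ush (5.64 CPM). It lay above all Tsc1 clones for oc (10.2 CPM), dve (30.65 CPM), Sox102F (8.10 CPM), klu (65.9 CPM) and Dtg (6.69 CPM). In the other libraries of the same genotypes, 9 of the 12 were also lower in Tsc1 foxoRi than in foxoRi clones. Under nutrient restriction, 8 of the 12 were lower in Tsc1 than in wt clones. By the same measure, the sign of the log2 FC, 51.1% and 38.1% of all tested genes were lower. Of the 12, 1 was called in the first of these comparisons and 0 in the second. Of these 12 genes, 9 were highest in wt replicate 2, the wt clone with the lowest eya, so and dac. The position of each clone in the disc is not given in the sources used here, and its part in these values was not tested. Among ligands, Delta, which activates Notch, had 233, 334 and 276 CPM in wt and 50.6, 51.9, 52.2 and 256 CPM in Tsc1 clones, so that Tsc1 replicate 4 lay within the wt range. Wnt5 fell from 48.8 to 64.3 CPM in wt to 20.4 to 38.5 CPM (log2 FC −0.88 ± 0.24).

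Among the genes called higher, 8 with roles in the eye or in signalling and adhesion were likewise grouped after their values were seen. Of the 8, all had a log2 FC over 0 in Tsc1 foxoRi against foxoRi clones and 2, Fili and wb, under nutrient restriction. The shares of all tested genes over 0 were 47.8% and 61.6%. In these comparisons, 0 and 1 of the 8 were called. The list of patterning ligands and pathways had 23 tested genes, of which fng was called higher and pnr and Delta lower, with 6 over 0 and a median log2 FC of −0.50. so, a homeodomain factor of retinal determination, had 49.8, 8.41 and 27.1 CPM in wt and 114, 114, 140 and 126 CPM in Tsc1 clones, a log2 FC of 2.11 ± 0.51. Its level in wt replicate 4 was 143 CPM, above all Tsc1 clones, and with that library the gene was not called (adjusted p = 0.351, edgeR). shf, a secreted factor that helps Hedgehog spread, had 3.07, 5.96 and 16.8 CPM in wt and 111, 118, 138 and 55.7 CPM in Tsc1 clones (log2 FC 3.61 ± 0.69, adjusted p = 0.0159, edgeR). It stayed above wt replicate 4, which had 22.6 CPM.

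The Wnt receptors fz2 and arr rose by 1.25 ± 0.37 and 1.80 ± 0.53 on the log2 scale, and fng, a glycosyltransferase that modifies Notch, by 2.06 ± 0.57. Fili, a leucine-rich repeat protein, had 9.67, 3.82 and 24.9 CPM in wt and 61.0 to 104 CPM in Tsc1 clones (log2 FC 2.65 ± 0.51), and wb, a laminin subunit, rose by 1.61 ± 0.38. With wt replicate 4, fz2, arr, fng and wb were not called, and Fili was. Among wt replicates 1 to 3, so, fz2, arr, fng, Fili and wb were lowest in replicate 2, and shf in replicate 1. Wt replicate 2 was also the highest wt clone for 9 of the 12 genes grouped above as called lower. eya (log2 FC 1.57 ± 0.71) and ey (0.77 ± 0.40), the other defining eye genes, were not called (adjusted p of 0.440 and 0.486, edgeR). Of 14 retinal determination genes, so was called higher and hth lower. Both are among the 8 progenitor markers, of which 0 were called without wt replicate 2 or without wt replicate 3. In each fit without 1 Tsc1 clone, 1 of the 8 was called higher and 0 lower, and hth was thus not called. The ion channel TrpA1 was called higher with 0 to 2.42 CPM in wt and 28.4, 14.9, 39.4 and 231 CPM in Tsc1 clones, and the muscle-associated kinase Obsc with 0.845 to 3.44 CPM in wt and 118, 0.621, 139 and 191 CPM, where Tsc1 replicate 2 was as low as wt.

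The same genotypes were compared in libraries outside the 7. One comparison set Tsc1 foxoRi against foxoRi clones on normal food, from larvae moved to 30°C for 12 h before dissection to knock down foxo, and the other set Tsc1 against wt clones at 25°C under nutrient restriction (NR), with 4 libraries in each group. The 3 comparisons share no library, but one fit gave their spread. In the first, 71 genes were called higher (0.525%) and 36 lower (0.266%), and under NR 64 (0.473%) and 26 (0.192%). Of the 45 genes called higher, 41 had a log2 FC over 0 in the foxoRi clones (91.1%, against 47.8% of all tested genes) and 31 under NR (68.9%, against 61.6%). Of the 119 called lower, 97 were under 0 in the foxoRi clones (81.5%, against 51.1%) and 92 under NR (77.3%, against 38.1%).

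Called in the same direction in all 3 comparisons were 7 of the 45 genes, namely scyl, chrb, P5CDh1, CG9674, CG4686, UQCR-C2 and the unannotated FBgn0027571, and 2 of the 119, ImpE2 and the unannotated FBgn0013984. scyl had 317 to 441 CPM in foxoRi and 1166 to 2330 CPM in Tsc1 foxoRi clones, and 289 to 492 CPM in wt and 2226 to 3595 CPM in Tsc1 clones under NR. chrb had 100.5 to 138 against 428 to 768 CPM, and 62.0 to 164 against 682 to 1055 CPM. Neither gene overlapped between genotypes in any of the 3 comparisons. ImpE2 had 71.4 to 1263 CPM in foxoRi and 0 to 1.55 CPM in Tsc1 foxoRi clones, and under NR 453, 119, 0 and 14.1 CPM in wt against 0.0886 to 4.02 CPM in Tsc1 clones. Men rose in the foxoRi comparison (log2 FC 2.06, adjusted p = 0.0193, edgeR) but had 13.2 to 22.1 CPM in wt and 14.3 to 26.7 CPM in Tsc1 clones under NR. The 5 called U2 copies were called lower in the foxoRi comparison and not under NR.

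**Figure D5:**
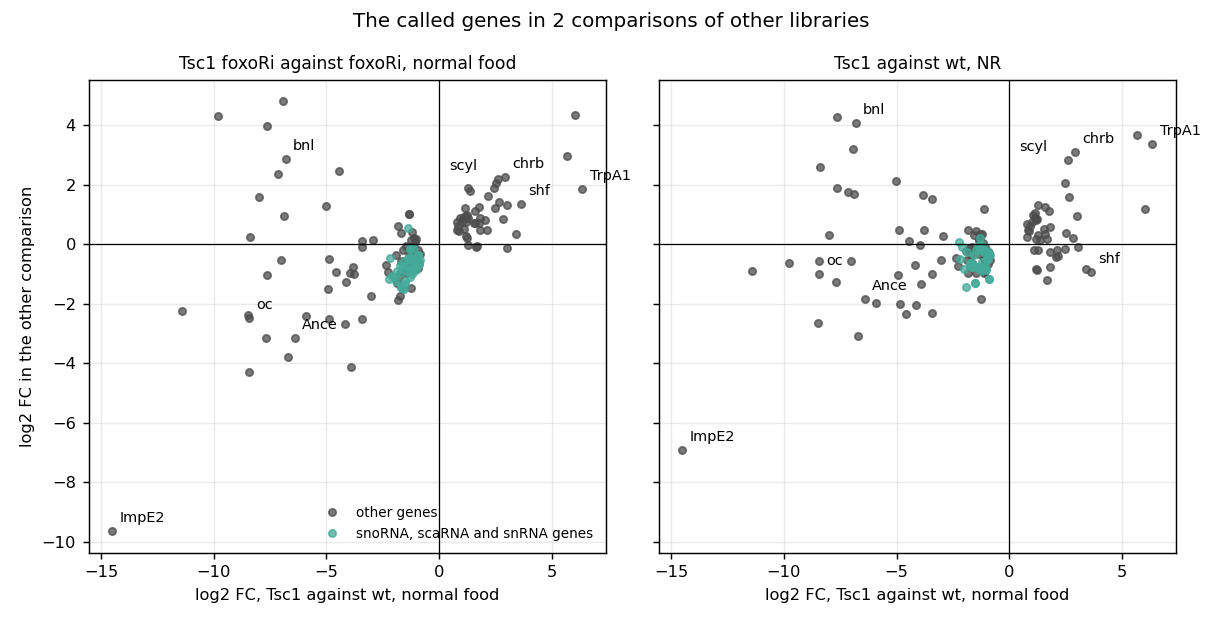
Log2 FC of the 164 called genes in Tsc1 against wt clones on normal food (horizontal axis) and in the 2 comparisons of other libraries (vertical axes, Tsc1 foxoRi against foxoRi clones and Tsc1 against wt clones under NR), 1 point per gene, with snoRNA, scaRNA and snRNA genes in green. scyl and chrb lie in the upper right of both panels and ImpE2 in the lower left, while shf (−0.93) and bnl (4.08) lie on the other side of 0 under NR.

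The difference of the Tsc1 effect between foods was tested as an interaction. It was called for 16 genes (0.118%), 6 with a higher effect on normal food and 10 with a lower one, and 1240 genes had an unadjusted p under 0.05. For shf the effect was 4.54 ± 0.86 log2 units higher on normal food (adjusted p = 0.0451, edgeR): under NR, wt clones had 115, 54.7, 103 and 49.5 CPM and Tsc1 clones 31.8, 59.6, 13.0 and 65.0 CPM. For bnl it was 10.9 ± 2.09 lower (adjusted p = 0.0451, edgeR), with 0 to 2.02 CPM in wt and 0.709 to 50.8 CPM in Tsc1 clones under NR. Larvae under NR were dissected at a later age, so that food and age cannot be told apart. The difference between the clones at 25°C and those at 30°C with foxo knockdown was called for 0 genes (0.00%) by edgeR, with 1092 genes at an unadjusted p under 0.05, and for 35 genes by DESeq2. Temperature and knockdown cannot be told apart in that contrast.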

How the data were processed

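The deposited table held estimated counts per gene: per the submitters' processing notes, the authors trimmed reads with Trimmomatic, mapped them to BDGP6 with STAR and counted them with featureCounts, whose versions and strand setting are not given in the sources used here. Reads with several matches were counted as fractions, 17.1% of values were not whole, and molecular identifiers were not in the table. Counts were rounded to whole numbers. Gene names and positions came from the Ensembl annotation of BDGP6.54, matched by FlyBase identifier for 17253 genes, and the 306 unmatched held 8.25% to 8.74% of the counts of a library.

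Tests used edgeR 4.0.16 in R 4.3.3 (TMM, filterByExpr, quasi-likelihood test, Benjamini-Hochberg). The study also used edgeR, with the same thresholds, on 29 libraries, but its settings and the 2 libraries it left out are not given in the sources used here. Here the 29 libraries of 8 groups were those without wt replicate 4 on normal food and foxoRi replicate 3 under NR. The code was tested on simulated data. Of the genes changed 2-, 4- and 8-fold, 13 of 67, 49 of 67 and 51 of 66 were called in the right direction. Of 13324 unchanged genes, 7 were called. Alternatives used DESeq2 1.42.0, limma 3.58.1, other libraries, filters and normalizations, a replicate block and leaving out each library. Exact permutation tests used scipy 1.17.1.

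Named were Tsc1, the 12 called genes of smallest p in each direction, called or leading list members and defining genes, and other called genes after their values were seen. Members and lists were chosen with earlier results of these data known. A result for 1 called gene is not reported here.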

Additional observations from a re-analysis of the deposited data

Results flagged for a closer look

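In 10 of 95 checks of the 4 Tsc1 clones, 1 clone stood far from the other 3. The limit used gives about 1 in 20 by chance only for independent, normally distributed values. The checks shared the same clones and the distribution of the CPM was not tested, so no excess over chance is shown. The highest clone had 230.7 CPM of TrpA1 (next 39.4), 0.607 CPM of sc (next 0), 107 CPM of Ance (next 20.0), 19.0 CPM of klu (next 2.18) and 256 CPM of Delta (next 52.2). It had 65.6 CPM of U2:34ABb (next 42.9), 80.8 CPM of Psi28S-3305c (next 51.7) and 74.3 CPM of mld (next 35.7). For elav the highest clone had 297 CPM (next 70.6), and the summed photoreceptor and neuron markers reached 1019 CPM (next 101). Tsc1 replicate 4 was the high clone for TrpA1, sc, klu, Delta, U2:34ABb, mld, elav and the marker sum, replicate 1 for Ance and replicate 3 for Psi28S-3305c.

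The Tsc1 effect differed between normal food and NR, by the interaction test, for 9 of the named genes. On the log2 scale it was higher on normal food by 2.87 for side-IV, 2.10 for fz2, 2.05 for olf413 and 4.54 for shf. The difference was −10.9 for bnl, −11.94 for CG31343, −2.32 for Msr-110, −7.17 for Pura and −2.33 for FBgn0250876.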

How the results depend on the processing

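Of 2040 combinations of 86 named genes and alternative settings, 1573 kept direction and stayed called or not called, 456 lost the call and 11 changed sign. In the main test 72 of the 86 were called, and only these had a call to lose. Dropping the fold limit could not remove a call. Of the 72, 24 stayed called at an adjusted p under 0.05. With wt replicate 4, 50 stayed called in the fit of 30 libraries and 11 with all 31. In the 8 libraries of the 2 groups, 19 of 70 did. Tsc1 itself had a log2 FC of −0.63 with wt replicate 4 (30 libraries), −0.69 with all 31 libraries, −0.74 in the 8 libraries of the 2 groups and −0.021 by limma-voom. Leaving out 1 library gave log2 FCs of −0.22 to 0.34 for Tsc1, −0.57 to 0.060 for foxo, −0.053 to 0.48 for Rheb, −0.10 to 0.38 for CycE, −0.13 to 1.69 for Thor and −0.047 to 1.31 for elav, none of them called. Fili, ac, chrb, scyl and shf were called in all 24 settings. The 164 called genes became 27 at an adjusted p under 0.05, 15 with all 31 libraries, 33 in the 8 libraries of the 2 groups, 403 by DESeq2, 260 by edgeR's likelihood ratio test, 403 by limma-voom, 256 with the stricter filter and 84 without the rRNA, snoRNA, snRNA and tRNA genes. Leaving out 1 library gave 32 (without Tsc1 replicate 2) to 201 (without wt replicate 1), with 77 and 70 without wt replicates 2 and 3 and 54 and 97 without Tsc1 replicates 1 and 3. The median log2 FC of all genes moved from −0.09 to 0.117 without wt replicate 1, and the share called higher from 27.4% to 42.8%, and to 41.0% with wt replicate 4.

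Of the 24 leading genes, 9 were called with all 31 libraries, 14 in the 8 libraries and 17 to 24 with 1 library left out. For Tsc1 foxoRi against foxoRi clones, 107 calls became 46 with wt replicate 4, 17 with all 31 libraries, 381 by DESeq2 and 71 without a filter. The 16 food interactions became 9 with all 31 libraries and 86 by DESeq2, and the 0 calls of the temperature and knockdown interaction became 6 with wt replicate 4, 35 by DESeq2 and 2 without a filter. The cause of these changes was not tested. Same-numbered clones did not deviate together (r of 0.00405, 0.0652 and −0.00692), so the numbers do not pair them, and a replicate block gave 152 calls, 99 for the foxoRi comparison and 14 food interactions.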
